A study of Mus musculus with 6 samples.

Results

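Gp2, Zg16, Cuzd1, Dmbt1, Tff2, Sycn and Rnase1 are 7 genes whose products line the membrane or fill the matrix of zymogen granules, the vesicles in which pancreatic acinar cells store digestive enzymes, or are secreted with them. Apart from the ribonuclease gene Rnase1, none of the 7 encodes an enzyme. The genes were chosen by name, with no measured value in the rule, though earlier results of these data were known. All 7 were found among the 49671 genes of the count table. RNA was sequenced from embryonic pancreata of C57BL/6J mice at 14.5 dpc (E14.5), either controls or treated with 10 µM AMI-5, a small molecule that inhibits protein methyltransferases, arginine methyltransferases among them. There were 3 control and 3 AMI-5 libraries. The controls carry no further description in the labels, which leave the culture, the duration of treatment and any vehicle to publications not used here. The labels do not state whether replicates were separate cultures or animals, so p-values reflect only the spread among these samples, and that spread may be technical.

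In the acinar cell, enzymes and accessory proteins enter the endoplasmic reticulum, condense in the Golgi into a dense granule core, and wait at the apical membrane until a secretagogue such as cholecystokinin raises calcium and the granules fuse. Gp2, a glycoprotein held by a lipid anchor, is the most abundant protein of the granule membrane. Dmbt1 encodes a large scavenger receptor-domain glycoprotein, which mouse acinar cells process into the granule protein muclin and which mucosal epithelia also secrete. Cuzd1 is a granule membrane protein with CUB domains. Gp2, Dmbt1 and Cuzd1 share a zona pellucida domain, a module of extracellular glycoproteins that polymerise. Syncollin (Sycn) sits on the inner face of the granule membrane, Zg16 is a lectin that links the matrix to the membrane, and the trefoil peptide Tff2 and pancreatic ribonuclease Rnase1 are soluble secreted proteins. Tff2 is also a product of stomach mucous neck cells, and Rnase1 of endothelial cells.

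Of the 7 genes, 5 lie on mouse chromosome 7 (build mm10). Sycn (ENSMUSG00000084174, chr7:28540885-28542209, plus strand, 2 exons) is at some distance from Gp2 (ENSMUSG00000030954, chr7:119442537-119459285, minus strand, 11 exons) and Zg16 (ENSMUSG00000049350, chr7:127050156-127087328, minus strand, 8 exons). Dmbt1 (ENSMUSG00000047517, chr7:131032053-131121630, plus strand, 51 exons) and Cuzd1 (ENSMUSG00000040205, chr7:131308554-131322292, minus strand, 9 exons) are close neighbours. Rnase1 (ENSMUSG00000035896, chr14:51145002-51146767, minus strand, 2 exons) and Tff2 (ENSMUSG00000024028, chr17:31141049-31144282, minus strand, 4 exons) lie apart from them. The spans of Fgfr2, around Dmbt1 and Cuzd1, and of Samd4b, around Sycn, enclose these genes but share 0 exonic bases with them. None of the 50-base stretches of the 7 transcripts is found in another annotated gene, so that their counts are not shared with a near copy.

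The promoters of 4 of the 7 genes are in the RefSeq promoter table for build GRCm38.p6, those of Gp2, Cuzd1, Sycn and Rnase1. They are shown because these genes were all higher in the AMI-5 libraries, as the values below give. Each sequence is the 250 bases before the RefSeq gene start, from 5′ to 3′ on the gene's own strand (Gp2 chr7:119459273-119459522, Cuzd1 chr7:131322293-131322542, Sycn chr7:28540635-28540884 and Rnase1 chr14:51146768-51147017). Capitals mark the TATA box TATAAA in Gp2 and the E-box CAGCTG in Cuzd1.
Gp2: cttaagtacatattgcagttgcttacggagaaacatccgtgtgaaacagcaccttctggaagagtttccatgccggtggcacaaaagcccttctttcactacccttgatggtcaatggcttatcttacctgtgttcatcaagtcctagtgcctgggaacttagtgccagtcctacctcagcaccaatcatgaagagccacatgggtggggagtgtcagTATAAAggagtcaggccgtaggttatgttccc
Cuzd1: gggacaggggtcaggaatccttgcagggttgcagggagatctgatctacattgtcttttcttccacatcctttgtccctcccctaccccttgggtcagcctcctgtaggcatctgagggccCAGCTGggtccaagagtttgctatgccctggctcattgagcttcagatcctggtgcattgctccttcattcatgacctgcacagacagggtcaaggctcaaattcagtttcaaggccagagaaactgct
Sycn: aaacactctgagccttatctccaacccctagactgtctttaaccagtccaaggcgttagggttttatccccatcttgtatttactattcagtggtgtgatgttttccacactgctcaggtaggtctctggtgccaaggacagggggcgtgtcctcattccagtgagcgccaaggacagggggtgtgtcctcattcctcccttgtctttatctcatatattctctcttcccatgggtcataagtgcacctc
Rnase1: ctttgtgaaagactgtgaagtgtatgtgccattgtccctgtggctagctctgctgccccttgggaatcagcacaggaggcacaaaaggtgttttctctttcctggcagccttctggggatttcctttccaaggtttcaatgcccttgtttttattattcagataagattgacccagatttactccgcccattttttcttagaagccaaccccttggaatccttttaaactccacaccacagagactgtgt
The windows searched, on both strands, ran on for 50 bases past the gene start. The TATA box was found in 1 of these 4 windows (Gp2, its first base at position -32) and in 13.6% of all 32851 windows of the table. The marked E-box was in 1 of 4 (Cuzd1, position -129) and in 16.3% of all. Any E-box, written CANNTG and so overlapping the other E-boxes searched, was in 2 of 4 (Gp2 and Cuzd1) and in 72.3% of all. The acinar factor complex PTF1 reads a pair of boxes, searched here as the E-box CACCTG, present in 0 of 4 windows and 20.2% of all, and as the letters TTTCCCA, present in 0 of 4 and 8.06% of all. Of the 21 windows of digestive enzyme genes in the table, 13 held the first of this pair and 6 the second. The E-box CATATG was in 0 of 4 windows and 3.91% of all. The motif of the nuclear receptor family NR5A, searched as AAGGTCA, was in 0 of 4 and 4.72% of all. The FOXA motif, searched as TGTTTAC, was in 0 of 4 and 3.65% of all. A match or its absence describes these letters in these windows only.

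The 6 libraries held 12445425 to 13321899 reads in controls and 22894312 to 24805188 with AMI-5. Levels are given as CPM, the count scaled to the TMM-adjusted library size, and tests are edgeR quasi-likelihood tests over all 17519 genes with enough reads, Benjamini-Hochberg adjusted, with 0.05 as threshold. Of these genes, 27.5% were called higher and 26.6% lower with AMI-5, 54.1% in either direction. Higher genes made up 50.9% of the calls, and 40.2% with scaling by library totals only. The labels describe strand-specific libraries and an earlier kit version for "A" samples. Titles read A1 to A3 for controls and Am1 to Am3 for AMI-5, so if "A" means the controls, kit and treatment cannot be told apart. In bulk RNA, fewer or more acinar cells and less or more RNA per cell cannot be told apart either. All 13 acinar markers had reads in every library, though some were near the floor in controls. The lowest was Pnlip, at 0.379 CPM (5 reads) in control replicate 3, and Amy2a5 was at 1.32 to 1.97 CPM in controls.

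All 7 genes rose with AMI-5, by 3.06-fold (Sycn) to 23.4-fold (Gp2), and no AMI-5 library was as low as any control library for any of them (against 27.5% of all tested genes called higher, 19.6% of those with unique sequence, defined below, and 31.3% whose AMI-5 libraries all lay above the controls). Their median log2 fold change was 3.35, against 0.00 over all genes tested. A log2 fold change over 2 was called for 6 of the 7, against 10.2% of all tested genes and 0.797% of 10915 unique-sequence genes. These are protein-coding genes that have less than 5% of their 50-base stretches in common with another gene. Together the 7 genes took 0.0234% to 0.0497% of reads in controls and 0.220% to 0.232% with AMI-5.

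**Figure D1:**
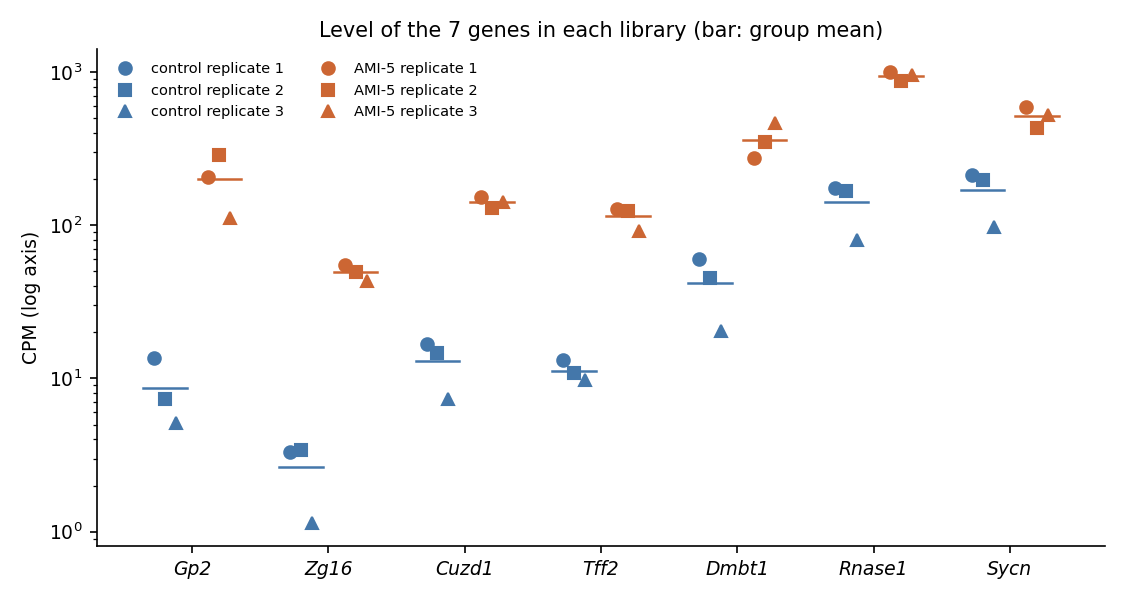
CPM of the 7 granule genes (log axis) in each control (blue) and AMI-5 (orange) library, with replicates 1 to 3 as circle, square and triangle and the group mean as a bar. For each gene the AMI-5 libraries lie above the controls, and the control triangle is the lowest of its group for all 7.

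Among the membrane glycoproteins, Gp2 had the largest change of the 7 genes. It was at 13.5, 7.29 and 5.08 CPM in control replicates 1, 2 and 3 and at 208, 286 and 111 CPM in AMI-5 replicates 1, 2 and 3. Both groups were spread, by 2.66-fold and 2.58-fold from lowest to highest library, yet the lowest AMI-5 library was 8.22-fold above the highest control. The means of 8.62 ± 4.36 and 201 ± 87.5 CPM (SD, n = 3 in each group) gave a log2 fold change of 4.55 (SE 0.60, edgeR adjusted p = 0.00372), and 11 of the 10915 unique-sequence genes had a larger one.

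Dmbt1, the muclin gene, was at 60.1, 45.3 and 20.2 CPM in controls and at 272, 347 and 465 CPM with AMI-5. Among the AMI-5 libraries, the one highest for Dmbt1 (replicate 3) was the lowest for Gp2. Means were 41.9 ± 20.2 and 362 ± 97.2 CPM (SD, n = 3), a log2 fold change of 3.11 (SE 0.50, edgeR adjusted p = 0.00717).

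Cuzd1, the CUB domain protein, was at 16.8, 14.6 and 7.35 CPM in controls and at 152, 129.8 and 141 CPM with AMI-5. The AMI-5 libraries lay within 1.17-fold of each other, and the controls within 2.29-fold. Means of 12.9 ± 4.96 and 141 ± 11.02 CPM (SD, n = 3) gave a log2 fold change of 3.44 (SE 0.28, edgeR adjusted p = 0.00043).

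Zg16 and Sycn, which link matrix and membrane, differed widely in level and in change. Zg16, the granule lectin, was the least abundant of the 7, at 3.33, 3.43 and 1.14 CPM in controls (43, 47 and 15 reads) and 55.1, 49.7 and 43.2 CPM with AMI-5. Its lowest AMI-5 library was 12.6-fold above its highest control, the widest gap of the 7 genes, and its log2 fold change was 4.22 (SE 0.28, edgeR adjusted p = 3.48e-05). Syncollin, Sycn, was already abundant in controls, at 212, 197 and 97.6 CPM, and stood at 592, 429 and 527 CPM with AMI-5. The gap between the groups was the narrowest of the 7, 2.02-fold from the highest control to the lowest AMI-5 library.

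Means for Sycn were 169 ± 62.1 and 516 ± 81.9 CPM (SD, n = 3), a log2 fold change of 1.61 (SE 0.36, edgeR adjusted p = 0.0200). Of the 7 calls, this one was lost under the most of the alternatives run. It ended without control replicate 2 (1.73, adjusted p = 0.0516), without AMI-5 replicate 1 (1.51, adjusted p = 0.0622) and without AMI-5 replicate 3 (1.62, adjusted p = 0.0634), and the sign turned (-0.91, adjusted p = 0.0961) when trends of the fold change with GC content and gene length, estimated on all tested genes, were taken out. With trends estimated on unique-sequence genes, its log2 fold change was 1.76 (adjusted p = 0.0230).

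The soluble proteins rose as well. Rnase1, the secreted ribonuclease, was at 175, 168 and 79.7 CPM in controls and at 1001, 877 and 959 CPM with AMI-5, where it was the 60th to 67th most abundant gene of the library. Means were 141 ± 53.1 and 946 ± 63.03 CPM (SD, n = 3), with a log2 fold change of 2.75 (SE 0.36, edgeR adjusted p = 0.0034). Without the trends of all genes its log2 fold change of 0.61 missed the threshold (adjusted p = 0.204), and without those of unique-sequence genes it was 2.61 (adjusted p = 0.0067).

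Tff2, the trefoil peptide, was at 13.1, 10.8 and 9.70 CPM in controls and at 127, 124 and 90.9 CPM with AMI-5. Its controls were the tightest of the 7 genes, within 1.35-fold of each other. Means of 11.2 ± 1.73 and 114 ± 20.1 CPM (SD, n = 3) gave a log2 fold change of 3.35 (SE 0.18, edgeR adjusted p = 5.95e-06), 0.71 without the trends of all genes (adjusted p = 0.0137) and 3.37 without those of unique-sequence genes. Taking out the trends of all genes moved the 3 shortest genes most, Sycn (556 bases of exon), Tff2 (584) and Rnase1 (970), and Zg16 (1257 bases) from 4.22 to 2.79. Gp2 (1998), Cuzd1 (2256) and Dmbt1 (7057) stayed at 4.13, 3.24 and 3.31.

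**Figure D2:**
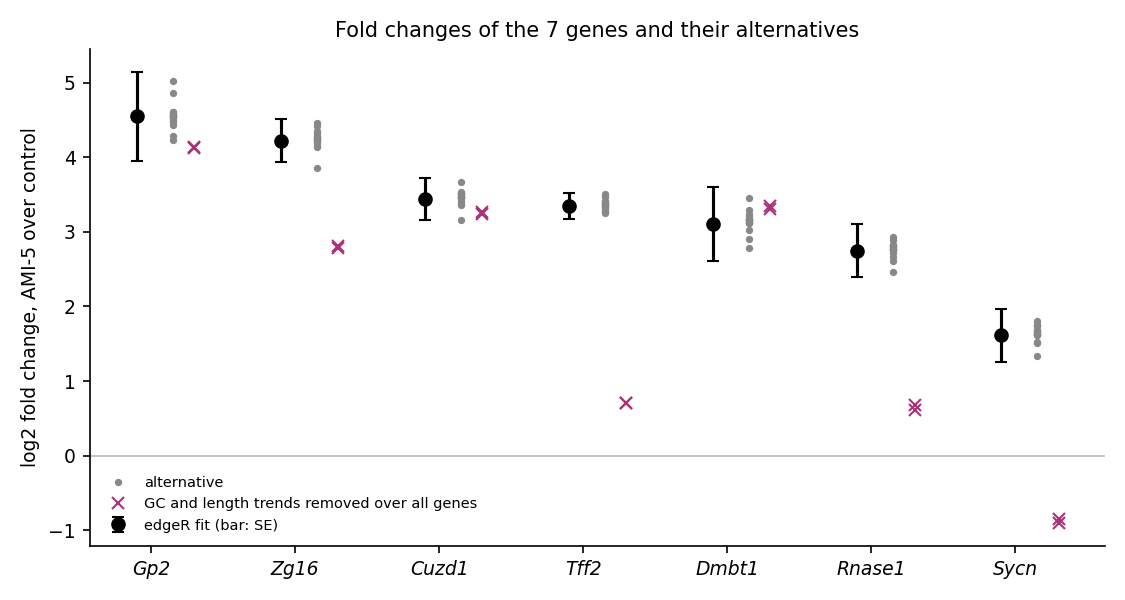
Log2 fold change (AMI-5 over control) of the 7 genes, in black with its SE, and under each alternative, in grey dots or, without the GC and length trends of all genes (with or without a replicate block), as crosses. The dots stay above 1, and the crosses of Sycn lie at -0.91 and -0.85.

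Per kilobase of exon, the order of levels changed between the groups. In controls the highest were Sycn (304 ± 112 CPM per kilobase) and Rnase1 (145 ± 54.8), whose libraries overlapped, followed by Tff2 (19.2 ± 2.97), which overlapped neither neighbour. Dmbt1 (5.93 ± 2.86), Cuzd1 (5.74 ± 2.20), Gp2 (4.31 ± 2.18) and Zg16 (2.09 ± 1.03) came last, each overlapping the next (SD, n = 3 for each). With AMI-5, Rnase1 (975 ± 65.0 CPM per kilobase) and Sycn (928 ± 147) again overlapped at the top and Tff2 (195 ± 34.4) stood apart below them. Gp2 (101 ± 43.8) now came before Cuzd1 (62.4 ± 4.89), Dmbt1 (51.2 ± 13.8) and Zg16 (39.2 ± 4.75), but each of these still overlapped the next.

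Control replicate 3 was the lowest control for each of the 7 genes, by 0.195 (Tff2) to 1.05 (Zg16) log2 units under the control mean of log2 CPM. The summed digestive enzymes were 0.322 under their mean in the same library, and the summed acinar transcription factors 0.152. Without it, log2 fold changes were 4.28 for Gp2, 3.86 for Zg16, 3.16 for Cuzd1, 2.78 for Dmbt1, 3.25 for Tff2, 1.33 for Sycn and 2.46 for Rnase1, all still past the threshold. Among the AMI-5 libraries no single one was low or high for all genes. Gp2 was 0.609 above its group's mean in replicate 2 and 0.757 below it in replicate 3, while Dmbt1 was 0.398 above in replicate 3.

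**Figure D3:**
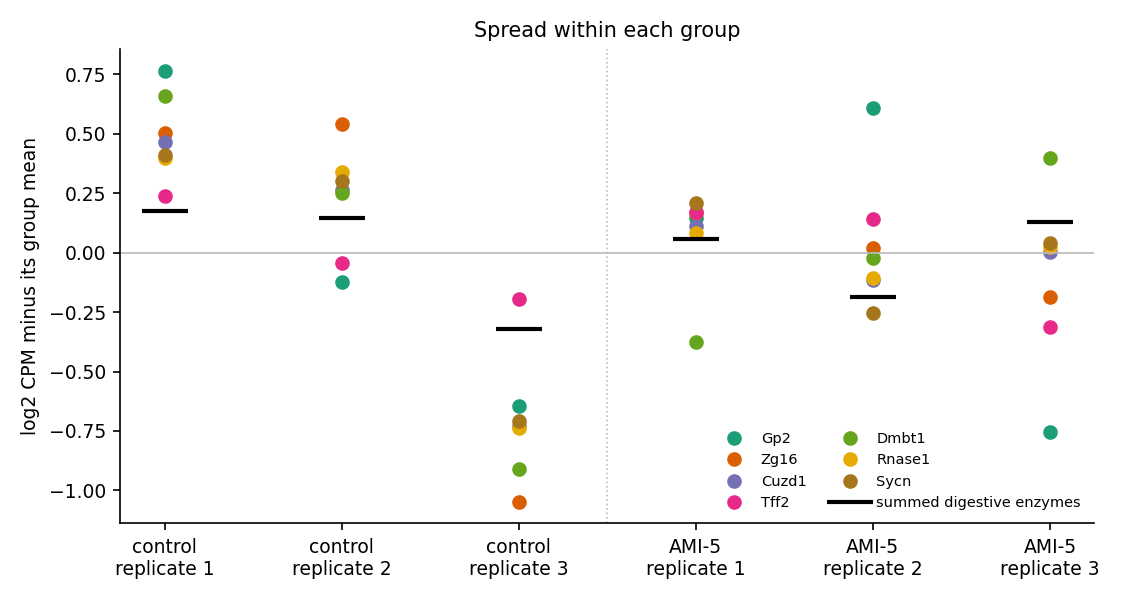
Log2 CPM of each granule gene minus its mean over the 3 libraries of the same group, for the 3 control (left) and 3 AMI-5 (right) libraries, with the summed digestive enzymes as a black bar. All 7 genes lie below zero in control replicate 3, and Gp2 and Dmbt1 spread most with AMI-5.

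AMI-5 replicate 2 also carried more liver transcripts than the rest: Alb, the albumin gene, was at 596 CPM there, against 7.18 to 17.6 CPM in the other 5 libraries, and the 10 liver genes took 0.165% of its reads, against 0.0196% to 0.0437% elsewhere. Of the 8 liver genes tested, the transthyretin gene Ttr fell (-0.89), the transferrin gene Trf rose (2.13, with 59.4% of its 50-base stretches shared), and the fetal protein gene Afp was at 3.05 (adjusted p = 0.276). Without that library Gp2 was at 4.24, Zg16 at 4.24, Cuzd1 at 3.52, Dmbt1 at 3.16, Tff2 at 3.31, Sycn at 1.75 and Rnase1 at 2.82, and all passed. Leukocyte markers also rose between the groups, with a median log2 fold change of 0.56. Of 10 tested, 7 rose and 0 fell, against 27.5% and 26.6% of all tested genes. Of the 7 with unique sequence, 5 rose and 0 fell, with a median of 0.40, against 19.6% of all unique-sequence genes called higher. The summed share of the 10 leukocyte markers was 0.0345% to 0.0416% of reads in controls and 0.0543% to 0.0611% with AMI-5. Within the controls it was highest in replicate 3, the lowest control for every granule gene. The macrophage receptor Mrc1 had a log2 fold change of 1.34, lysozyme Lyz2 0.85, the macrophage gene Adgre1 0.84 and the leukocyte phosphatase Ptprc 0.76, and Csf1r was at 0.52 (adjusted p = 0.0707). Their part in the result was not tested.

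Markers of other cell types, some of which make Tff2, Dmbt1 or Rnase1, were also measured. Their counts stand against 27.5% of all tested genes called higher and 26.6% called lower. Of 22 stomach and gut mucosa genes, 11 had enough reads to be tested, of which 1 rose (Gif, gastric intrinsic factor, log2 fold change 1.45) and 2 fell (the gastrokines Gkn3, -1.91, and Gkn1, -1.16). Spdef, a factor of secretory cells, was at -0.25 (adjusted p = 0.0581) and the microvillus gene Vil1 at 0.21 (adjusted p = 0.125). Their summed share was 0.0106% to 0.0138% of reads in controls and 0.0104% to 0.0128% with AMI-5, and Gkn2 had 0 reads in all 6 libraries. Of 8 endothelial genes, 0 rose and 1 fell (Tie1, a receptor of vessel lining cells, -0.35), with 0.04997% to 0.0631% of reads in controls and 0.0381% to 0.0568% with AMI-5. The vessel genes Pecam1 and Cdh5 were at 0.12 (adjusted p = 0.502) and -0.40 (adjusted p = 0.116). Of 12 duct and trunk genes, 2 rose, the bicarbonate transporter gene Slc4a4 (0.43) and Spp1 (0.22). Another 5 fell, among them Onecut1 (-0.87, 52.3% of its stretches shared), the keratin gene Krt7 (-0.51) and the epithelial adhesion gene Epcam (-0.37). Of the 10 duct and trunk genes with unique sequence, which leave out Spp1 and Onecut1, 1 rose and 4 fell. Of 14 endocrine genes, 1 rose (the insulin gene Ins1, 0.49) and 4 fell, with Ins2 at -0.05 (adjusted p = 0.686). Those that fell included the endocrine progenitor factor Neurog3 (-1.57), the ghrelin gene Ghrl (-0.67) and the granin Chgb (-0.45). Of the 11 endocrine genes with unique sequence, 1 rose and 2 fell, the lowest at -0.45. Neurog3 and Ghrl are not among these 11, since 5% or more of their stretches are shared. Among 10 mesenchyme genes, 3 rose, the matrix proteoglycan genes Dcn (0.83) and Lum (0.48) and the collagen gene Col3a1 (0.19), and 4 fell, among them the mesenchymal factor Nkx3-2 (-1.03), the smooth muscle actin gene Acta2 (-0.49) and the collagen gene Col1a1 (-0.27). The part of these cells in the result was not tested.

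Among the closest relatives and neighbours of the granule genes, some were higher and others lower with AMI-5. Umod, the kidney uromodulin gene and the nearest relative of Gp2, lies 3426 bases from it. It had 2 reads over the 3 controls and 33 over the 3 AMI-5 libraries, too few for the test. Scaled to depth, Umod was higher with AMI-5, at 0.0501 ± 0.0435 and 0.485 ± 0.145 CPM (SD, n = 3). Next to Tff2, the trefoil gene Tff3 fell (log2 fold change -1.13, SE 0.38, edgeR adjusted p = 0.0243) from 1.00 ± 0.296 to 0.456 ± 0.167 CPM (SD, n = 3), and Tff1, on the other side, had 1 and 10 reads per group. The gene next to Rnase1 on one side, Rnase6, had 5 reads over the controls and 21 with AMI-5. These were 0.126 ± 0.0433 and 0.311 ± 0.313 CPM (SD, n = 3). Rnase2b, on the other side, had 0 reads. Read totals in this paragraph are not scaled to library depth, which was greater with AMI-5. Of the 12 genes listed for the trefoil and ribonuclease families, 4 could be tested and 0 rose. Rnase4, a ribonuclease of broad expression, was at -0.15 (adjusted p = 0.264) and the ribonuclease inhibitor gene Rnh1 fell by 0.34 on the log2 scale.

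Among 12 other zona pellucida domain genes, 4 could be tested, of which Tgfbr3, a TGF-beta co-receptor, rose (0.35), Zp3, an egg coat protein gene, rose from 1.75 ± 1.16 to 5.09 ± 0.562 CPM (SD, n = 3; log2 fold change 1.53), and the endothelial co-receptor Eng fell (-0.33). Beside Zg16, the kinesin gene Kif22, which serves chromosome movement, fell (-0.84) and AI467606 rose (0.48). Beside Dmbt1, the protease gene Htra1 rose (0.31), and beside Sycn, Nccrp1 rose (0.51, adjusted p = 0.0376). 5430419D17Rik, between Dmbt1 and Cuzd1 and 2103 bases from Cuzd1, rose (0.80). Among the other neighbours, Gpr139 (beside Gp2) and Fam24b (beside Cuzd1) had at most 5 reads in either group, and 4933402N03Rik (beside Dmbt1) and Ifnl3 (beside Sycn) had 0. No tested neighbour changed as much as its granule gene.

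Digestive enzymes, the main cargo of the granules, rose too. Of 26 genes for enzymes, cofactors or a trypsin inhibitor, all called enzyme genes here, 21 rose and 0 fell. This was against 27.5% and 26.6% of all tested genes, and the median log2 fold change was 1.52. Of the 13 with unique sequence, 11 rose, against 19.6% of all unique-sequence genes, with a median of 0.90. Gp2 and Zg16 were each passed by 2 of the 26 enzymes and by 0 of the 13 with unique sequence, Cuzd1, Tff2 and Dmbt1 by 1 of the 13, Rnase1 by 2 and Sycn by 4. Chymotrypsinogen Ctrb1, the most abundant enzyme transcript, was at 0.88 and the lipase relative Pnliprp1 at 1.56. Amylase Amy2a5 (7.68), trypsinogens Prss2 (3.56) and Try5 (2.69) and amylase Amy1 (1.43) had the smallest p but share 53.5%, 7.83%, 47.6% and 33.3% of their 50-base stretches with other genes, so their values are uncertain. Without the trends of all genes, 14 of the 26 were higher and 5 lower.

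Set against the summed enzyme reads within each library, the granule genes were also higher with AMI-5. Most of these enzyme reads were of Ctrb1 and Pnliprp1 (log2 fold changes 0.88 and 1.56). Enzyme genes that rose more than the sum, such as Ctrl (4.04), are higher on this scale too, and those that rose less are lower. Per 1000 reads of the 26 enzyme genes, Gp2 took 0.158, 0.0871 and 0.0840 reads in control replicates 1, 2 and 3 and 1.16, 1.89 and 0.589 in AMI-5 replicates 1, 2 and 3. Zg16 went on this scale from 0.0329 ± 0.0123 to 0.288 ± 0.0522, Cuzd1 from 0.165 ± 0.0388 to 0.818 ± 0.0604 and Tff2 from 0.148 ± 0.0166 to 0.671 ± 0.172 reads per 1000 (SD, n = 3). Dmbt1 went from 0.527 ± 0.185 to 2.09 ± 0.504, Rnase1 from 1.79 ± 0.411 to 5.49 ± 0.358 and Sycn from 2.15 ± 0.468 to 2.98 ± 0.285 (SD, n = 3). The ratio of the means ran from 1.39 for Sycn to 11.04 for Gp2, and groups overlapped for none of the 7. With the 13 unique-sequence enzymes as the denominator the ratios ran from 1.51 to 12.0, again with no overlap. With 3 against 3 libraries an exact permutation test cannot go below p = 0.1, so these ratios are given without a test.

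**Figure D4:**
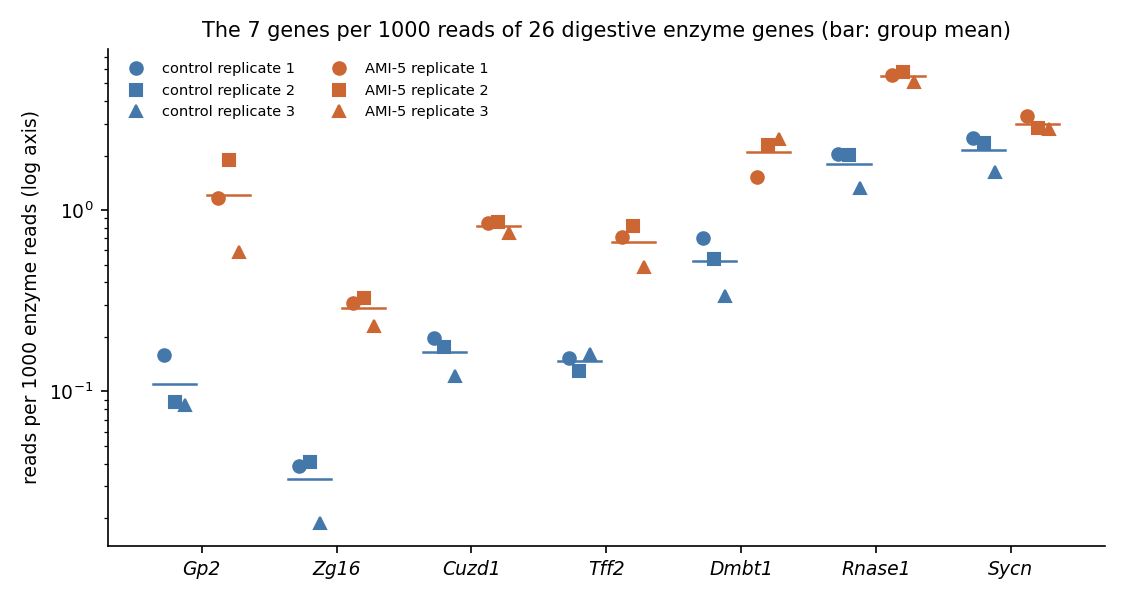
Reads of each granule gene per 1000 reads of 26 digestive enzyme genes (log axis) in each library, coloured as in the plot of CPM, with group means as bars. Sycn shows the smallest gap between the groups, from 2.48 in the highest control to 2.80 in the lowest AMI-5 library.

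Of 22 genes that move and release granules, 6 rose and 6 fell, shares close to the 27.5% and 26.6% of all tested genes. Their median log2 fold change was -0.03, and 0.02 with upper-quartile scaling. Rab27b and Rab3d, small GTPases of the granule surface, rose by 0.90 (SE 0.09) and 0.43 (SE 0.10), and the endosomal SNARE gene Stx7 by 0.68. Vamp8, the SNARE of the zymogen granule itself, fell by 0.43 (SE 0.07, edgeR adjusted p = 0.000323), and Stxbp2, a syntaxin partner, fell by 0.37. The chaperone gene Dnajc5, the most abundant of the list, was at -0.03 (adjusted p = 0.631).

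Of 18 receptor and calcium release genes, 1 rose and 9 fell, against 27.5% and 26.6% of all tested genes, with a median of -0.25. Cckar, the cholecystokinin receptor, went from 324 ± 37.5 to 253 ± 30.3 CPM (SD, n = 3; log2 fold change -0.35, edgeR adjusted p = 0.0193). The IP3 receptor Itpr3 fell by 0.54, phospholipase Plcb3 by 0.35, the calcium pump gene Atp2a2 by 0.32 and the G protein gene Gna11 by 0.25 on the log2 scale. The count fell to 6 without control replicate 2 (1 higher, 5 lower). Without the trends of all genes, 4 were higher and 2 lower and the median was 0.08, and without those of unique-sequence genes, 1 and 2.

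Among 12 acinar transcription factors, 0 rose and 7 fell, against 27.5% and 26.6% of all tested genes, with a median of -0.27. Among those that fell were Foxa3 (-0.57), Nr5a2 (-0.40) and Gata4 (-0.36). Xbp1, the regulator of secretory capacity, was at 0.04 (adjusted p = 0.721), and Rbpjl, the acinar partner of Ptf1a, at -0.54 (adjusted p = 0.0803). Without the trends of all genes, 4 were higher and 4 lower (median 0.11). Without those of unique-sequence genes, 2 of 10 were higher and 3 lower.

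Of 20 genes of the secretory pathway before the granule, 10 rose and 3 fell, against 27.5% and 26.6% of all tested genes, with a median of 0.18. Pdia2, a pancreatic disulfide isomerase, rose most, from 7.53 ± 2.65 to 40.7 ± 2.71 CPM (SD, n = 3; log2 fold change 2.43, SE 0.22, edgeR adjusted p = 8.5e-05). The chaperone genes Dnajc3 and Hspa5 and the translocon subunit gene Ssr3 rose by 0.39, 0.30 and 0.33, and the disulfide isomerase Pdia4 fell by 0.37. Hsp90b1, an abundant chaperone, was at 0.06 (adjusted p = 0.425). Without the trends of all genes, 5 were higher and 9 lower (median -0.01). Without those of unique-sequence genes, 6 of 14 were higher and 1 lower.

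**Figure D5:**
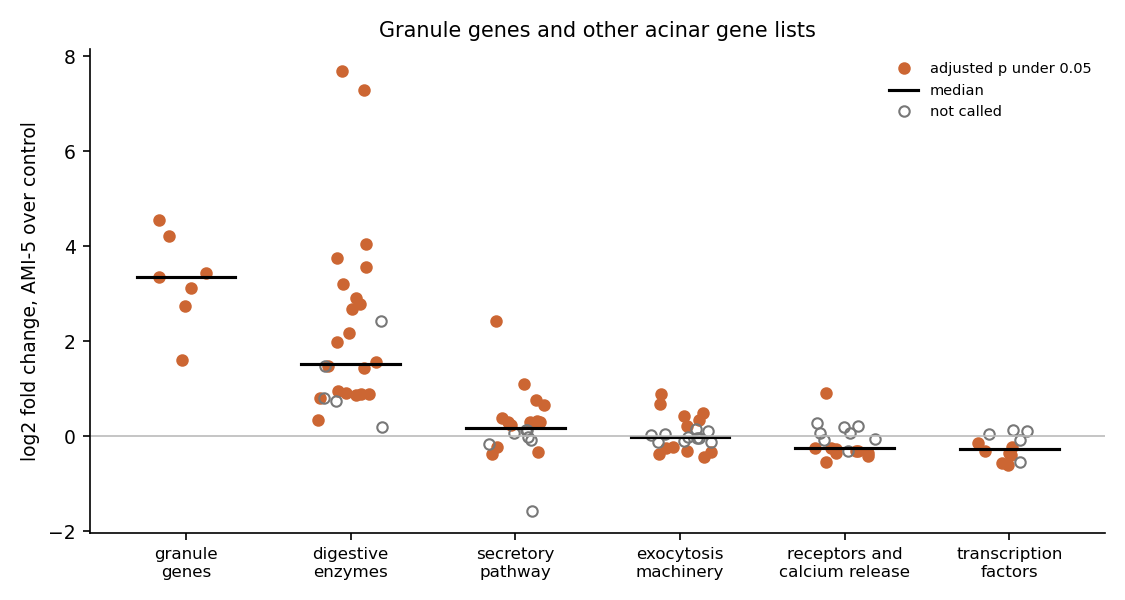
Log2 fold change (AMI-5 over control) of each tested gene in 6 lists, filled where the edgeR adjusted p was under 0.05 and open where not, with the list's median as a bar. The 7 granule genes lie between 1.61 and 4.55. The medians of exocytosis machinery, receptors and transcription factors lie at -0.03, -0.25 and -0.27. Each of these medians turned positive without the trends of all genes (0.02, 0.08 and 0.11). Without those of unique-sequence genes they were 0.05, -0.007 and -0.08.

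The genes whose profile over the 6 libraries was most like that of a granule gene included several digestive enzyme genes. Likeness was the root mean square difference of centred log2 CPM, over 13649 other protein-coding genes of at least 1 CPM on average. Profiles were centred over all 6 libraries, so this difference depends largely on how alike the fold changes between the groups are. Nearest to Sycn were the acinar aquaporin gene Aqp12 (0.0913 log2 units), trypsinogen Prss1 (0.119) and Reg3d (0.136), and nearest to Rnase1 were another aquaporin gene, Aqp8 (0.107), elastase Cela2a (0.117) and the lipase relative Pnliprp2 (0.129). Cuzd1 had trypsinogen Try4 (0.155), the kallikrein Klk1 (0.164) and elastase Cela3b (0.220), and Dmbt1 had Try4 (0.312), Cuzd1 (0.320) and Rnase1 (0.337).

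Zg16 lay nearest to Gstp2 (0.176), Lamp3 (0.269) and chymotrypsin-like Ctrl (0.276). Gp2 had no close match, with Lamp3 at 0.463, Zg16 at 0.477 and F13a1, a clotting factor subunit also found in macrophages, at 0.491. Tff2 had the stress-induced pseudokinase gene Trib3 (0.175), the ribosomal protein gene Rps6 (0.214) and Wdr89 (0.236). Prss1, Try4, Gstp2, Rps6, Klk1, Cela3b, Cela2a and Wdr89 share 10.8% to 65.6% of their 50-base stretches with other genes, and Lamp3 5.11%. Lamp3 and Gstp2 were at only 0.0760 ± 0.0775 and 0.299 ± 0.217 CPM in controls (SD, n = 3), so their profiles there rest on few reads. Aqp8, with 0% shared, went from 9.92 ± 4.35 to 63.4 ± 8.02 CPM, and Trib3 from 8.92 ± 1.54 to 80.0 ± 15.3 CPM (SD, n = 3).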

How the data were processed

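Total RNA was sequenced from 3 control and 3 AMI-5 samples, 1 library each. The values are gene counts as deposited, not normalized, in 1 table of 49763 rows. The deposited Length column (gene length, another kind of value) gives bases of merged exons. Per the submitters' processing notes, the tools were featureCounts 1.6.2, bcl2fastq 2.19.1 and GSNAP 2018-05-30, and the build mm10, and the deposited table names gene models of release 87. How strand and multi-mapping reads were handled in counting is not given in the sources used here. Spike-ins (92 rows, 1 read) were left out. Symbols, classes and shared 50-base stretches came from GENCODE M21 (mm10), where 99.81% of shared identifiers lay at an overlapping position.

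Tests used edgeR 4.0.16 in R 4.3.3 (TMM, filterByExpr, robust quasi-likelihood F test, two-sided, group as the only term), tested on simulated data first. SE is that of the log2 fold change. Alternatives used RLE, upper-quartile or totals-only scaling, TMM without the enzyme and granule genes, other filters (none, or 1 CPM in every library), DESeq2 1.42.0, limma 3.58.1 voom, libraries thinned to the smallest total, protein-coding genes only, GC and length trends removed by splines with 5 degrees of freedom, a replicate block, and each library left out. The 7 genes, the lists and the tests were chosen with earlier results of these data known. Beside the 7, genes are named from each list by smallest p (up to 4 past the threshold) or largest mean CPM (up to 2), the 3 most similar profiles per gene, and chromosomal neighbours. Alb and Gkn2 fall outside this rule and were chosen after their values were seen. Replicate libraries were compared by chi-square (6.71 to 16.1 per df, more than sampling gives), and each counted as 1 sample. Depth of 12445425 to 24805188 reads limits the precision of counts most for Zg16 in controls (43, 47 and 15 reads). The SE of the log2 fold change was largest for Gp2 (0.60) and Dmbt1 (0.50) and smallest for Tff2 (0.18). Promoter sequences are from RefSeq (GRCm38.p6). A gene that the naming rule selects is not reported here.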

Additional observations from a re-analysis of the deposited data

How the results depend on the processing

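Of the 20 alternatives, all kept the sign and the call of Gp2 (log2 fold change 4.12 to 5.02), Zg16 (2.79 to 4.46), Cuzd1 (3.16 to 3.67) and Tff2 (0.70 to 3.51). The cause of the changes below was not tested. Without the GC and length trends of all genes, Sycn was at -0.91 and Rnase1 at 0.61, and 6 receptor and calcium genes were called in place of 10. Without those of unique-sequence genes, where fewer genes are tested, 3881 of 10915 genes were called against 9472 of 17519, and 8 enzymes, 3 receptor and calcium genes and 7 secretory pathway genes. With a replicate block, Dmbt1 was at 3.16 (adjusted p = 0.0668) and Sycn at 1.67 (adjusted p = 0.0577), and neither passed. The replicate block with the trends of all genes taken out gave Dmbt1 3.35, Sycn -0.85 and Rnase1 0.68, none past the threshold, with 4 of the 7 granule genes, 13 enzymes and 6 receptor and calcium genes called. Same-numbered samples did not deviate together (r across genes of -0.0579, -0.0377 and -0.048), so the number is not taken as a pairing; 9186 genes were called with the block. Leaving out 1 library moved Sycn between 1.33 and 1.81, and the receptor and calcium count between 6 and 10. Higher genes made up 50.9% of calls, against 40.2% with totals-only scaling, which put the median gene at -0.09.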
